A study of Mus musculus with 4 samples.

Results

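Transcripts were compared between a pair of cultures labelled myr-Akt and c-Myc and a pair labelled H-RasV12 and non-transformed, all of them mouse fetal liver progenitor cells lacking p53 (p53-/-). A gene was said to divide the pairs when both arrays of one pair lay above both arrays of the other. The pairing was chosen by the readout itself, because earlier results on these same arrays had shown it as their main division, so every count below is a description with no test. Of 18193 genes with a probe set of their own, 10679 rose above the floor on 1 or more arrays and are called measured, and 6214 of those divided the pairs. In 3145 of them (29.5% of the measured genes) both myr-Akt and c-Myc were higher, in 3069 (28.7%) both were lower, and 4465 did not divide.

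The myr-Akt cells carry AKT1 with an added myristoyl group, which holds the kinase at the membrane, and the c-Myc cells carry the transcription factor of that name. H-RasV12 is a small GTPase locked in its active form, and the non-transformed cells received no oncogene. All 4 cultures share the loss of p53, and all grew in 1 maintenance medium with EGF at 20 ng/ml, HGF at 50 ng/ml, dexamethasone and serum at 10%. There was 1 array for each label, hence 2 in each pair, and the oncogenes within a pair differ, so the 2 arrays of a pair are not replicates. The sources used here do not give the vector, the promoter that drives each oncogene or whether a culture is a clone or a pool. The cultures are called by their labels throughout.

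As background, Ras passes growth factor signals through the kinases RAF and MEK to ERK, which switches on cyclin D1, AP-1 factors, EGF family ligands and its own feedback phosphatases. AKT acts downstream of PI3 kinase, raises protein synthesis and nutrient uptake, and keeps FOXO factors out of the nucleus. MYC binds E-boxes, with the letters CACGTG, and is known for raising ribosome production, nucleotide synthesis and cell growth. Fetal liver progenitors are the source of both hepatocytes and cholangiocytes, the lining cells of bile ducts.

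Signals are linear MAS5 intensities, and the 4 arrays had the same trimmed mean of 500.003. Those under a floor of 100.001 (20% of that mean) were set to it, and values at the floor have no order. The gap of a gene is the log2 distance between the nearest arrays of the pairs, signed as myr-Akt and c-Myc over H-RasV12 and non-transformed. Where the lower pair lay at the floor, the gap is a bound and is written as at least N-fold, taking the dimmer of the bright arrays. The median difference of a gene list is the median over its measured members of the log2 mean of myr-Akt and c-Myc minus that of H-RasV12 and non-transformed, and it was -0.01 over all measured genes. These are whole-culture RNA measurements, in which fewer cells of a kind and less RNA per cell cannot be told apart.

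The arrays were alike in the probe ratios given below, but differed in how many genes rose above the floor. Measured genes above the floor numbered 9512 in myr-Akt and 9492 in c-Myc, against 9927 in H-RasV12 and 10216 in non-transformed cells, so more genes were at the floor in the first pair. The ratio of 5′ to 3′ probe signals lay between 0.846 and 0.907 for actin and between 1.24 and 1.29 for Gapdh. With so few arrays, the precision of each value is limited by their number.

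The numbers of measured genes 2-fold or more apart between arrays come from the same arrays that chose the pairing, so they are no support for it. Myr-Akt and c-Myc differed in 378 genes, with 163 higher and 215 lower in myr-Akt. H-RasV12 and non-transformed cells differed in 892, with 222 higher and 670 lower in H-RasV12. Across the pairs the numbers were 1467 for myr-Akt against H-RasV12, 1876 for myr-Akt against non-transformed, 1482 for c-Myc against H-RasV12 and 1683 for c-Myc against non-transformed cells.

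Most gaps were small in both directions, and the large ones lay mostly on the lower side. With both myr-Akt and c-Myc higher, the median gap was 0.23, and 81 genes (0.758% of the measured genes) reached 2-fold, 10 reached 4-fold and 3 reached 8-fold. With both lower, the median size was 0.34, and 516 genes (4.83%) reached 2-fold, 147 reached 4-fold, 32 reached 8-fold and 4 reached 16-fold. Genes at the floor took part in this imbalance, since 154 of the 516 lower genes were at it on both myr-Akt and c-Myc arrays, and 12 of the 81 higher genes were at it on both other arrays. Among the 8965 genes above the floor on all 4 arrays, 2964 were higher (33.1%) and 2440 lower (27.2%), while at 2-fold 53 were higher (0.591%) and 301 lower (3.36%). Leaving out an array makes division easier, and the 2-fold counts then became 178 higher and 662 lower without myr-Akt, 185 and 717 without c-Myc, 303 and 978 without H-RasV12, and 320 and 771 without non-transformed cells.

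**Figure D1:**
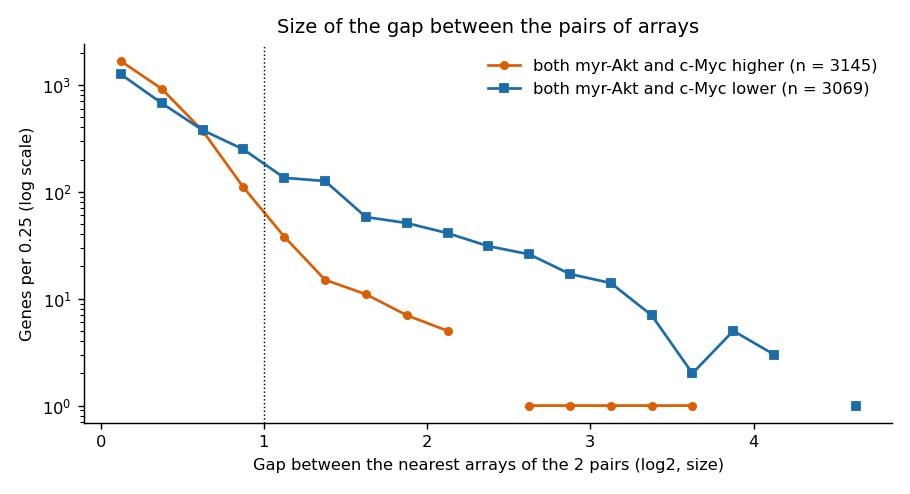
Number of genes (log scale) by the size of the gap between the nearest arrays of the pairs (log2), in steps of 0.25, for genes with both myr-Akt and c-Myc higher (orange circles, 3145 genes) and both lower (blue squares, 3069 genes). The dotted line marks a 2-fold gap, beyond which 81 higher and 516 lower genes lie.

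At the 2-fold limit, Sap30 was just inside, its dimmer myr-Akt or c-Myc array at 3833 and the brighter of the others at 1912, and Hmgxb4 was just outside with 2440.4 and 1222. On the lower side, Rai14 was just inside, with 2996 in c-Myc and 5992 in non-transformed cells as the nearest arrays. Ociad2 was just outside, with 178 in myr-Akt and 355 in non-transformed cells. At the edge of division itself, Gstp1 counted as higher with 11829 in myr-Akt cells against 11811 in non-transformed cells. Ets1 did not divide, with 802 in myr-Akt and 804 in c-Myc cells, against 965 in H-RasV12 and 799 in non-transformed cells.

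Further probe sets of the 2-fold genes, where they had a signal, were mostly divided the same way, but often by less than 2-fold. Of the 516 lower genes, 243 had a further probe set above the floor, which was divided the same way in 208, not divided in 34 and divided the other way in 1. Of the 81 higher genes, 36 had one, divided the same way in 32 and not divided in 4. The further probe set itself reached 2-fold in 126 of the 243 lower and 15 of the 36 higher genes. Further probe sets at the floor on all 4 arrays were left out of these counts, since they give no reading. Values of a further probe set that departs from the one used are given beside many of the genes named below.

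The signals of the transduced genes do not serve as a check of the labels. The probe set named for Myc gave 640 in myr-Akt and 421 in c-Myc cells, against 1747 in H-RasV12 and 2285 in non-transformed cells, a gap of -1.45. The array labelled c-Myc thus had the lowest Myc signal of the 4. Akt1 gave 2834 in myr-Akt and 2991 in c-Myc cells, against 2760.3 in H-RasV12 and 1870.1 in non-transformed cells, a gap of 0.04. The sources used here do not say whether these probe sets can bind the transduced transcripts, and Hras and Trp53 were not analysed here.

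Hepatocyte and hepatoblast genes were mostly under the floor, whichever pair was looked at. Of 39 such genes on the array, 21 were under it on all 4 arrays, and 5 were above it in myr-Akt and 6 in c-Myc, against 17 in H-RasV12 and 9 in non-transformed cells. Afp, Alb, Ttr and Hnf4a, the defining genes of hepatoblasts and hepatocytes, were above the floor on the H-RasV12 array alone, at 568, 168, 476 and 169. Apoa1, an apolipoprotein made by liver and gut, was at the floor in myr-Akt and c-Myc cells, against 4299.7 in H-RasV12 and 638 in non-transformed cells, at least 6.38-fold lower. Of the 18 measured members 0 were higher and 4 lower, and these 22.2% are under the lower share of all measured genes. The median difference was -0.52, or -0.94 without the non-transformed array and -0.38 without H-RasV12. Members entered by passing the floor on any array, and 17 of the 18 passed it in H-RasV12. That rule by itself favours a lower reading, so no conclusion is drawn from the direction. Among the 4 members above the floor on all arrays 0 were divided, and their median difference was 0.62.

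Mesothelial markers, genes of the cell layer that covers the liver and the body cavities, were bright in 3 of the 4 cultures and split both ways. Upk3b, a defining mesothelial gene, gave 12838 in myr-Akt and 11557 in c-Myc cells, against 1299 in H-RasV12 and 15167 in non-transformed cells. Wt1, a transcription factor of mesothelium, gave 3772 in myr-Akt and 3438 in c-Myc cells, against 1529 in H-RasV12 and 3419 in non-transformed cells. The low array in both was H-RasV12, so the pairs barely divide there or do not. Msln, which encodes mesothelin, went with the pairs instead, at 238 in myr-Akt and 348 in c-Myc cells, against 3096 in H-RasV12 and 7836 in non-transformed cells. Among 16 measured markers 5 were higher and 4 lower (31.25% and 25%), near the 29.5% and 28.7% of all measured genes. Their summed signals were 63716 in myr-Akt and 68551 in c-Myc cells, against 26839 in H-RasV12 and 85341 in non-transformed cells.

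Markers of stellate cells and pericytes, the contractile cells around liver sinusoids, were lower or not divided. Of 14 measured markers 9 were lower and 0 higher, and their summed signals were 40275 in myr-Akt and 46797 in c-Myc cells, against 63607 in H-RasV12 and 67755 in non-transformed cells. Pdgfrb, the receptor that marks pericytes, was at the floor in myr-Akt and c-Myc cells, against 555 in H-RasV12 and 770 in non-transformed cells. The defining stellate genes Lrat and Reln were under the floor on all 4 arrays. Rgs5, a pericyte gene, was at the floor in the first pair too, against 356 in H-RasV12 and 623 in non-transformed cells, and the further probe sets of Pdgfrb and Rgs5 had gaps of -0.00 and -0.56. What part these cells had in the lower matrix and smooth muscle genes described below was not tested.

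Few markers of other lineages were detected. Of 19 endothelial markers on the array 14 were under the floor throughout, Pecam1, Cdh5 and Kdr among them, as were 19 of 22 leukocyte markers, Ptprc and Lyz2 among them, and 11 of 13 erythroid and megakaryocyte markers. Among the 18 neuronal and glial markers 9 were measured. Their summed signals were 2691 in myr-Akt and 2723 in c-Myc cells, against 4322 in H-RasV12 and 7829 in non-transformed cells.

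The largest gap of all genes belonged to Crabp1, a cytoplasmic retinoic acid binding protein, which was at the floor in myr-Akt and c-Myc cells, against 2421 in H-RasV12 and 4928 in non-transformed cells, at least 24.2-fold lower. Tgfbi, an adhesion protein of the matrix that TGF-beta induces, was at the floor in the first pair as well, against 3053 in H-RasV12 and 1896 in non-transformed cells, a bound of -4.24 on the log2 scale. Dkk1, a secreted WNT antagonist, was likewise at the floor, against 1621 in H-RasV12 and 2688 in non-transformed cells, and its further probe set had a gap of -1.82. In the same state were Il11, a cytokine of the interleukin 6 family, Ephx2, an epoxide hydrolase, Nes, which encodes the filament protein nestin, and Prss22, Ctla2a, Gda and Gng11. The bounds of these 7 ran from at least 9.05-fold for Nes to at least 11.7-fold for Il11, and a further probe set of Nes had a gap of -1.54.

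Among genes above the floor on all arrays, Prkg2 stood lowest. It encodes a cGMP-dependent protein kinase and gave 206 in myr-Akt and 313 in c-Myc cells, against 13948 in H-RasV12 and 5433 in non-transformed cells, a gap of -4.12. Tspan8, a membrane tetraspanin, gave 172 in myr-Akt and 181 in c-Myc cells, against 3105 in H-RasV12 and 2892 in non-transformed cells, a gap of -4.00. In Tspan8 the arrays of each pair nearly coincide, whereas in Prkg2 H-RasV12 lay well above non-transformed cells. Il33, an alarmin cytokine, gave 767 in myr-Akt and 119 in c-Myc cells, against 21389 in H-RasV12 and 8515 in non-transformed cells, a gap of -3.47 that holds although myr-Akt and c-Myc were far apart.

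Cd44, the hyaluronan receptor, was bright in every culture and still divided, with 1466 in myr-Akt and 1471 in c-Myc cells, against 15410 in H-RasV12 and 10918 in non-transformed cells, a gap of -2.89. Dpysl3, a cytoskeletal protein of growing neurites, had a gap of -3.86, Thbd, the thrombin receptor thrombomodulin, one of -3.43, and Mmp23, a matrix metalloproteinase, one of -3.13. For Emp1, an epithelial membrane protein, the gap was -3.35, though its further probe set had -0.40, and for Ltbp1, which holds latent TGF-beta in the matrix, it was -2.97 with -0.39 by the further probe set.

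Far fewer genes were higher by a wide gap. Plac1, a gene normally active in placenta, gave 3348 in myr-Akt and 2810.4 in c-Myc cells, against the floor in H-RasV12 and 245 in non-transformed cells, a gap of 3.52. Smpdl3b, a lipid-modulating phosphodiesterase of the membrane, gave 2100.5 in myr-Akt and 3709.8 in c-Myc cells, against 251 in H-RasV12 and 184 in non-transformed cells, a gap of 3.07. Depp1, a target of FOXO factors, gave 973 in myr-Akt and 1081 in c-Myc cells and was at the floor in the other pair, at least 9.73-fold higher. All of these separate the pairs with no overlap, as the rule demands.

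Several of the other higher genes belong to energy and carbon metabolism. Ppargc1b, a coactivator of mitochondrial genes, gave 908 in myr-Akt and 957 in c-Myc cells, against 134 in H-RasV12 and 145 in non-transformed cells, a gap of 2.65. Aldoc, an aldolase of glycolysis, gave 1722 in myr-Akt and 2911 in c-Myc cells, against 398 in H-RasV12 and 401 in non-transformed cells, with a further probe set at the floor on all arrays. Rpia, which makes ribose 5-phosphate in the pentose phosphate pathway, gave 3714 in myr-Akt and 3198 in c-Myc cells, against 755 in H-RasV12 and 823 in non-transformed cells. Each of these 3 genes was close within its pairs or closer than the gap between them. Bdh1, a ketone body enzyme, had a gap of 1.80 (0.24 by a further probe set). Slc16a1, a lactate and pyruvate transporter, had one of 1.60 (a further probe set was at the floor on all arrays), and Maoa, monoamine oxidase A, one of 1.37.

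Gstm1, a glutathione transferase, had a gap of 1.62 with 1.68 by a further probe set, and Acot1, an acyl-CoA thioesterase, had one of 1.47. Nup210, a nuclear pore subunit, was at the floor in H-RasV12 and non-transformed cells, against which myr-Akt gave 472 and c-Myc 925. So were Gucy1a1, a subunit of the nitric oxide receptor, Klf15, a metabolic transcription factor, Dnmt3b, a DNA methyltransferase, and Krt14, a keratin of basal epithelium, at least 3.67-fold, 2.90-fold, 2.72-fold and 2.48-fold higher in that order. The further probe set of Nup210 was at the floor on all arrays, that of Gucy1a1 was not divided, and that of Dnmt3b had a gap of 0.10.

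**Figure D2:**
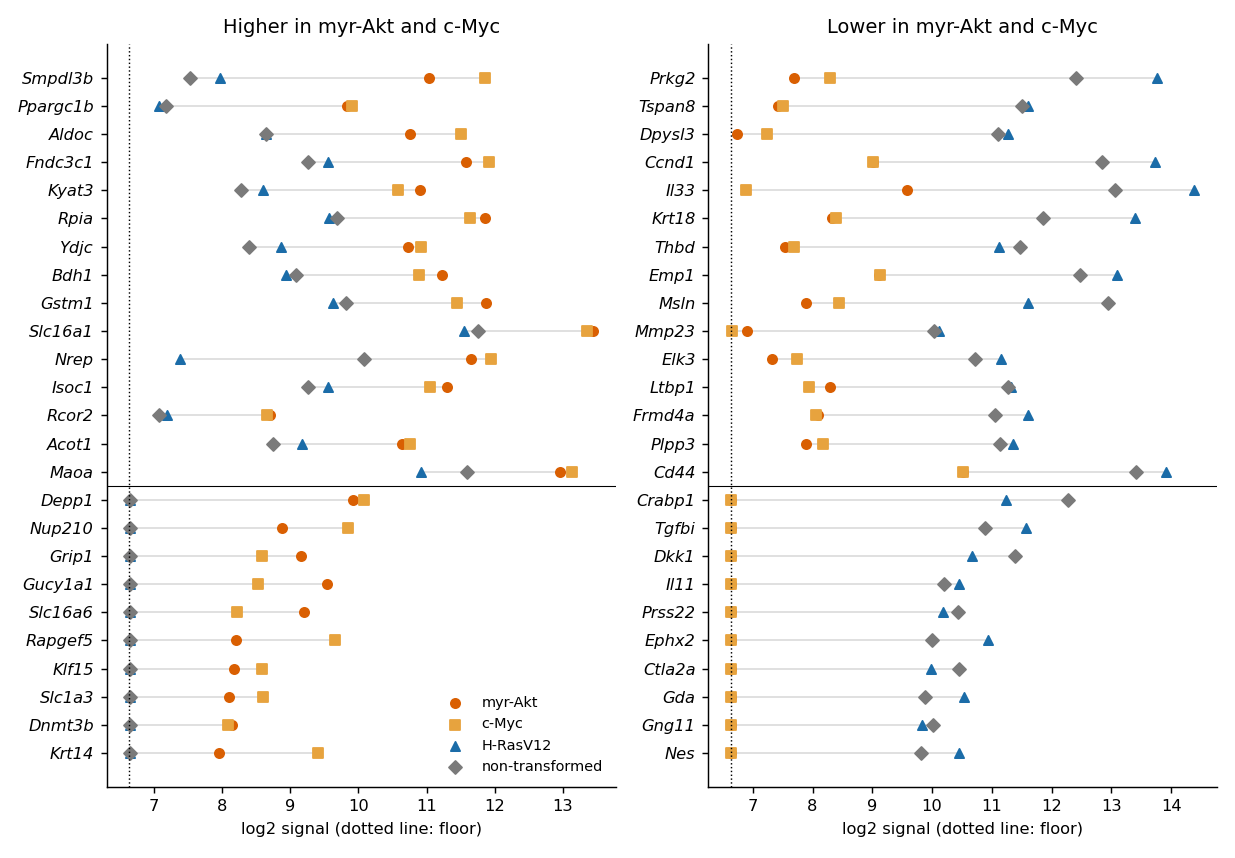
Log2 signal on each array (symbols) for the genes with the largest gaps, higher in myr-Akt and c-Myc on the left and lower on the right. Above the solid line are the 15 largest among genes above the floor on all 4 arrays, below it the 10 largest with the low pair at the floor (dotted line), where the signal is only a bound. The low pair sits together for most genes, as in Tspan8 and Ppargc1b, while Il33 and Nrep show a wide spread within a pair.

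The gene lists were read against the background of 29.5% higher and 28.7% lower among all measured genes. Of the lists with 10 or more measured members, ribosome biogenesis, DNA replication and mitosis had the highest shares of higher members. Interferon response, smooth muscle and actin cytoskeleton, and stellate cell and pericyte markers had the highest shares of lower ones. Members of a list are not independent of each other.

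**Figure D3:**
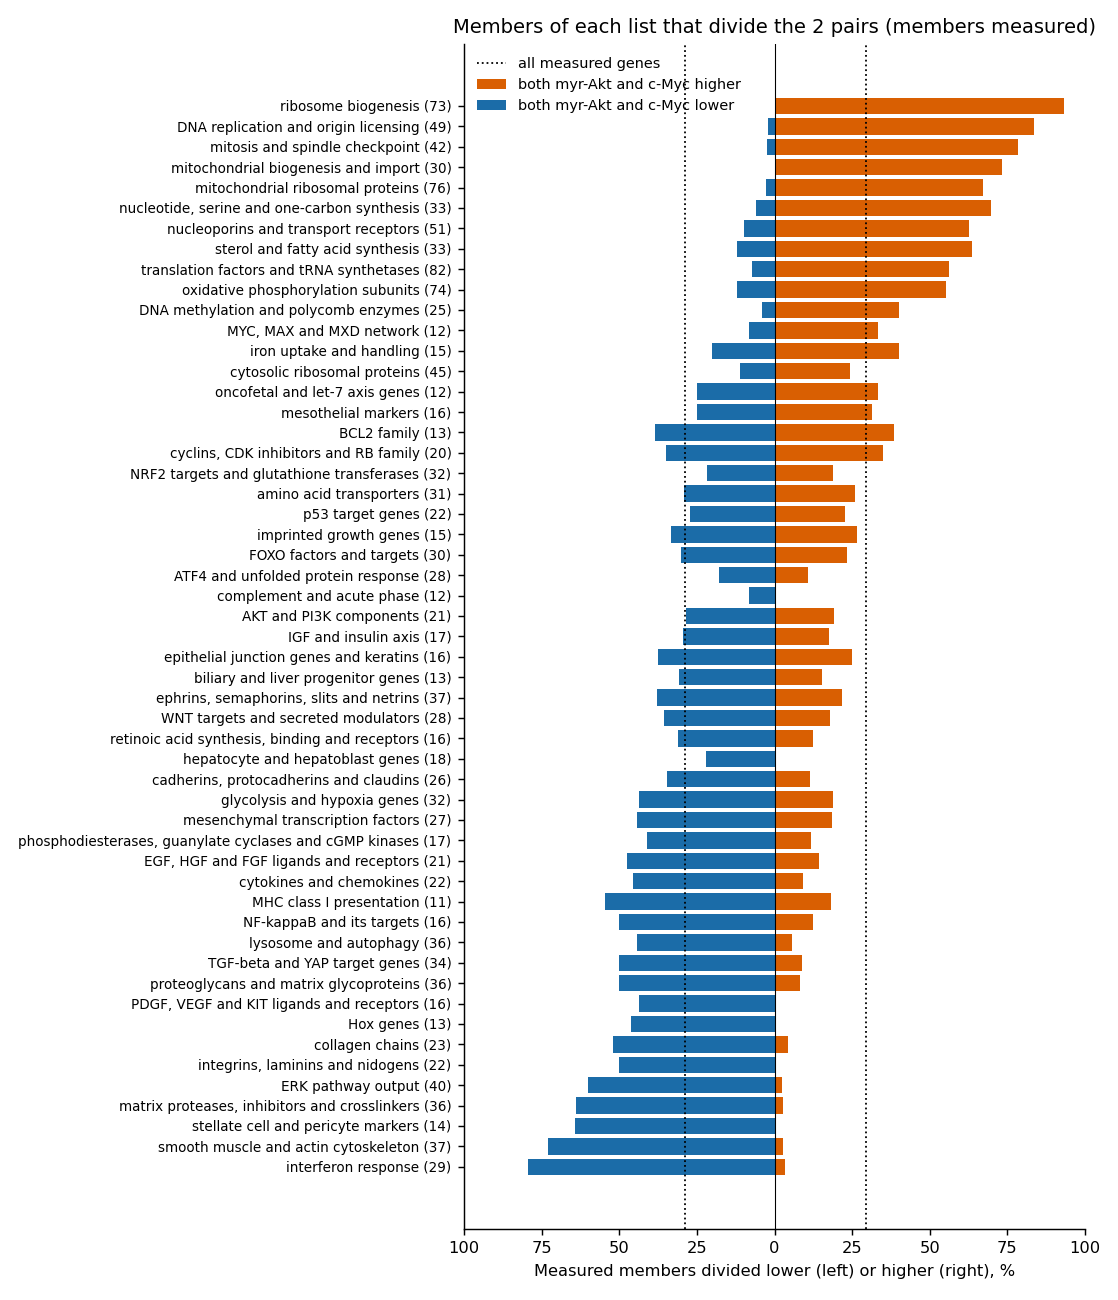
Share of the measured members of each list (number in brackets, lists of 10 or more) that divide the pairs, with both myr-Akt and c-Myc higher to the right in orange and lower to the left in blue. Dotted lines give the shares over all measured genes, 29.5% and 28.7%. Ribosome biogenesis lies at 68 of 73 higher and interferon response at 23 of 29 lower.

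Genes that the ERK pathway switches on were lower in myr-Akt and c-Myc cells, with 24 of 40 lower, 11 of them by 2-fold, and 1 higher, and a median difference of -0.72. Ccnd1, which encodes cyclin D1, gave 517 in myr-Akt and 514 in c-Myc cells, against 13638 in H-RasV12 and 7334 in non-transformed cells, a gap of -3.83 that a further probe set gave as -3.82. Ereg, an EGF family ligand, gave 118 in myr-Akt cells and the floor in c-Myc cells, against 3589 in H-RasV12 and 1731 in non-transformed cells. Etv4, an ETS family factor, was at the floor in both myr-Akt and c-Myc cells, against 1174 in H-RasV12 and 308 in non-transformed cells, and its further probe set was not divided. In all 3 genes H-RasV12 was the highest array, and non-transformed cells still lay far above the other pair.

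Feedback inhibitors of the pathway went the same way. Dusp4, a nuclear phosphatase of ERK, gave 333 in myr-Akt and 866 in c-Myc cells, against 11525 in H-RasV12 and 5569.5 in non-transformed cells. Dusp6, its cytoplasmic counterpart, gave 1314 in myr-Akt and 3377 in c-Myc cells, against 12162 in H-RasV12 and 9169 in non-transformed cells. In both, myr-Akt was the lowest of the 4 arrays. Spry4 and Spred1, adaptors that dampen receptor signalling, had smaller gaps of -0.33 and -0.45.

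The AP-1 and immediate early factors were mixed. Fosl1, the AP-1 subunit FRA1, gave 284 in myr-Akt and 145 in c-Myc cells, against 2947 in H-RasV12 and 1463 in non-transformed cells, a gap of -2.36. Fos, Jun, Egr1 and Fosl2 were not divided, and Ets2 was the list's only higher member, with a gap of 0.31 and a further probe set that was not divided. Hmga2, a chromatin protein of fetal tissues that also stands on this list, gave 784 in myr-Akt and 1492 in c-Myc cells, against 15118 in H-RasV12 and 9738 in non-transformed cells.

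Ligands and receptors of the EGF, HGF and FGF families were lower in 10 of 21 and higher in 3. Hbegf, another EGF family ligand, gave 1599 in myr-Akt and 1979 in c-Myc cells, against 8072 in H-RasV12 and 5495 in non-transformed cells. Fgf7, a growth factor for epithelium, was at the floor in myr-Akt and c-Myc cells, against 1555 in H-RasV12 and 730 in non-transformed cells. Met, the HGF receptor, was higher by a gap of 0.01, with a further probe set at the floor on all arrays. Among PDGF, VEGF and KIT ligands and receptors 7 of 16 were lower and 0 higher.

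Promoters were searched for the letters that AP-1 factors are known to bind. RefSeq windows of assembly GRCm38.p6, 250 bases before to 50 after the start, were at hand for 8725 of the measured genes. The letters TGANTCA, on either strand, stood in 8.27% of 411 windows of 2-fold lower genes, 4.76% of 63 windows of 2-fold higher genes and 4.44% of all windows. Over genes lower by any gap the share was 4.70%, and over genes higher by any gap 3.34%. In the ERK list itself 1 of 27 windows held the letters. The 250 bases before the start are shown for the 2-fold lower genes with the largest gaps among those that hold the site there, with the AP-1 letters in capitals, and each match is a description, not a site of binding.
Emp1, chr6:135362681-135362930, plus strand: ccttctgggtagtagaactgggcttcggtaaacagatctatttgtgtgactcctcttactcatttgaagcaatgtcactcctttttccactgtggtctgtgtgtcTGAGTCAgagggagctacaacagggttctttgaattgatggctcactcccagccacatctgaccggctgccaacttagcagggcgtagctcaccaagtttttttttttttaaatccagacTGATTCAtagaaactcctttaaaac
Ctla2a, chr13:60936626-60936875, minus strand: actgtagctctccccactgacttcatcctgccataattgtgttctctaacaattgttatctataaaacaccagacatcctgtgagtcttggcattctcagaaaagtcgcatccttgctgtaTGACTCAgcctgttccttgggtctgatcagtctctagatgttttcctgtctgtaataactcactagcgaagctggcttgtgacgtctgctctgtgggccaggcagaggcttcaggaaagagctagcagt

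The Emp1 stretch holds 2 matches, and the one in Ctla2a ends 122 bases before the start. Emp1 gave 555 in myr-Akt and 559 in c-Myc cells, against 8704 in H-RasV12 and 5694 in non-transformed cells. Ctla2a, which encodes an inhibitor of cysteine proteases, was at the floor in the first pair, against 1009 in H-RasV12 and 1402 in non-transformed cells.

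Interferon response genes were lower in 23 of 29, the highest share among lists of 10 or more members, 14 of them by 2-fold, with 1 higher and a median difference of -1.60. Ifi27, a mitochondrial membrane protein that interferon induces, gave 159 in myr-Akt cells and the floor in c-Myc cells, against 2311 in H-RasV12 and 3580.4 in non-transformed cells, a gap of -3.86. Xaf1, an antagonist of apoptosis inhibitors, was at the floor in both myr-Akt and c-Myc cells, against 876 in H-RasV12 and 1975 in non-transformed cells, and its further probe set had a gap of -0.40. Ifih1, the RNA sensor MDA5, gave 138 in myr-Akt and 137 in c-Myc cells, against 465 in H-RasV12 and 780 in non-transformed cells. Unlike the ERK genes, most of these were highest in non-transformed cells.

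Ifit1, a protein that blocks translation of viral RNA, was at the floor in myr-Akt and c-Myc cells, against 470.2 in H-RasV12 and 1056 in non-transformed cells, at least 4.70-fold lower. Irf7 and Irf9, factors that carry the interferon signal to promoters, had gaps of -1.47 and -1.08. Irf1 was the member that went the other way, with 1044 in myr-Akt and 1296 in c-Myc cells, against 665 in H-RasV12 and 861 in non-transformed cells. The number of members above the floor was 12 in myr-Akt and 10 in c-Myc, against 25 in H-RasV12 and 28 in non-transformed cells, so many of the gaps are bounds. Among the 10 members above it on all arrays 9 were lower and the median difference was -1.36.

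The core of the interferon-stimulated response element, GAAANNGAA on either strand, stood in 15 of 24 promoter windows of this list (62.5%), against 6.59% of all windows, 8.76% of those of the 2-fold lower genes and 9.52% of those of the 2-fold higher genes. As background, the factors that interferon activates bind this element. Shown are the 3 members with the largest gaps among those that hold it in the 250 bases before the start (GRCm38.p6, RefSeq), with the element or its reverse complement in capitals.
Ifit1, chr19:34640639-34640888, plus strand: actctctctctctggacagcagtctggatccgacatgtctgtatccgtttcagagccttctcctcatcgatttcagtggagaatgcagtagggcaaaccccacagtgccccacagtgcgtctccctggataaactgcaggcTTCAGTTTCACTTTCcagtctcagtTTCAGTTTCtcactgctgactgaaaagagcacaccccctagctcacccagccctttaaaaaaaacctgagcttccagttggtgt
Rsad2, chr12:26456453-26456702, minus strand: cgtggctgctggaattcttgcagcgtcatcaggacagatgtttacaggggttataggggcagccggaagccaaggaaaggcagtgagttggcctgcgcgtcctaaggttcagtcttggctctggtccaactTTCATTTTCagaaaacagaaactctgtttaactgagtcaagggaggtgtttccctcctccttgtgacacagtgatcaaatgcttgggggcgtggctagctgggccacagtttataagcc
Ifih1, chr2:62646256-62646505, minus strand: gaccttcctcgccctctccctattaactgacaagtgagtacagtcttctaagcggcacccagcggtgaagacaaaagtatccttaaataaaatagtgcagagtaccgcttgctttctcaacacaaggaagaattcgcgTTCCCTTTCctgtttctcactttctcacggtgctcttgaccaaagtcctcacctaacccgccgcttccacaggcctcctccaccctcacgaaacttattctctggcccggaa

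Ifit1 holds 3 matches, the first 2 of which overlap and are printed as 1 run of capitals, and the first of them ends 100 bases before the start. Rsad2 and Ifih1 hold 1 match each, ending 110 and 103 bases before it. Rsad2, the antiviral enzyme viperin, gave 152 in myr-Akt cells and the floor in c-Myc cells, against 699 in H-RasV12 and 579 in non-transformed cells, a gap of -1.93 for which its further probe set gave -0.46. Among the list's members that were not divided, Stat2, Gbp2 and Gbp3 hold the element too.

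Antigen presentation and inflammatory lists held more lower than higher members. H2-D1, a class I heavy chain, gave 1114 in myr-Akt and 851 in c-Myc cells, against 2256 in H-RasV12 and 2701 in non-transformed cells, and B2m, its light chain, had a gap of -0.34. Class I presentation held 6 lower and 2 higher of 11, cytokines and chemokines 10 lower and 2 higher of 22, and NF-kappaB and its targets 8 lower and 2 higher of 16. Their median differences were -0.24, -0.32 and -0.61 in that order. Without the non-transformed array they shrank to -0.10, -0.16 and -0.21, and without H-RasV12 they were -0.29, -0.76 and -0.83. Summed NF-kappaB signals were lowest in H-RasV12, at 25898, against 31079 in myr-Akt, 30003 in c-Myc and 38278 in non-transformed cells. Cxcl12, a chemokine of stromal cells, gave 2755 in myr-Akt and 1657 in c-Myc cells, against 7794 in H-RasV12 and 12667 in non-transformed cells. Vcam1, an adhesion molecule, gave 411 in myr-Akt and 238 in c-Myc cells, against 2310 in H-RasV12 and 3074 in non-transformed cells. Tgfb1 had a gap of -3.15, but a further probe set of that gene gave -0.10.

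Matrix genes were more often lower than higher in each of 4 lists. Proteases, inhibitors and crosslinkers were lower in 23 of 36, 14 by 2-fold, and higher in 1. Their median difference was -0.97, or -1.61 without the H-RasV12 array and -0.90 without the non-transformed array. Collagen chains were lower in 12 of 23 and higher in 1, proteoglycans and glycoproteins lower in 18 of 36 and higher in 3, and integrins, laminins and nidogens lower in 11 of 22 and higher in 0. Their median differences were -0.93, -0.75 and -0.84 in that order. Without H-RasV12 they were -1.61, -1.25 and -1.41, and without the non-transformed array they shrank to -0.37, -0.20 and -0.48. Summed collagen signals were 84670 in myr-Akt and 70026 in c-Myc cells, against 75452 in H-RasV12 and 157945 in non-transformed cells. H-RasV12 thus lay between the arrays of the first pair in that sum. Bmp1, the protease that trims procollagen, gave 329 in myr-Akt and 389 in c-Myc cells, against 2792 in H-RasV12 and 2890.0 in non-transformed cells. Pcolce, which enhances that protease, gave 459 in myr-Akt and 665 in c-Myc cells, against 4690.5 in H-RasV12 and 5442 in non-transformed cells. Loxl3, a collagen crosslinker, had a gap of -2.76.

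Basement membrane genes and matrix receptors were among them. Nid1, which links laminin to collagen IV, gave 2223 in myr-Akt and 2000.1 in c-Myc cells, against 16995 in H-RasV12 and 14087 in non-transformed cells. Col18a1, the source of endostatin, gave 174 in myr-Akt and 274 in c-Myc cells, against 1387 in H-RasV12 and 1216 in non-transformed cells. Itga5, a fibronectin receptor subunit, had a gap of -2.11, Vcan, which encodes versican, one of -1.69, and Fbln2, which encodes a fibulin, one of -1.31 with -0.57 by a further probe set. Col1a1 gave 2598 in myr-Akt and 2120.3 in c-Myc cells, against 3536 in H-RasV12 and 12325 in non-transformed cells, so non-transformed cells stood apart from the other 3 cultures more than the pairs did, and a further probe set gave a gap of -0.10. The 5 higher members of the matrix lists were Fbn2, which encodes a fibrillin, with a gap of 1.24, Eln, which encodes elastin, with 0.89, Plod2, a lysyl hydroxylase, with 0.24, Efemp1, another fibulin, with 0.21, and Col6a1 with 0.16.

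Smooth muscle and actin cytoskeleton genes were lower in 27 of 37 and higher in 1, mostly by less than 2-fold, with a median difference of -0.61. Tpm2, a tropomyosin, gave 9095 in myr-Akt and 9239 in c-Myc cells, against 20078 in H-RasV12 and 18788 in non-transformed cells. Myl9, a myosin light chain, gave 1295 in myr-Akt and 1528 in c-Myc cells, against 4284 in H-RasV12 and 9849 in non-transformed cells. The higher member was Srf, the factor that binds their promoters, by a gap of 0.38, with -0.01 by a further probe set. TGF-beta and YAP target genes were lower in 17 of 34 and higher in 3. Ankrd1, a YAP target, gave 2206 in myr-Akt and 1586 in c-Myc cells, against 16257 in H-RasV12 and 10007 in non-transformed cells. Id1 and Id2, targets of BMP signals on the same list, had gaps of 0.09 and 0.84.

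Transcription factors of mesenchyme were lower in 12 of 27 and higher in 5. Prrx1, a homeobox factor of limb and connective tissue, gave 231 in myr-Akt cells and the floor in c-Myc cells, against 3046 in H-RasV12 and 1932 in non-transformed cells. Snai2, a repressor of epithelial genes, gave 563 in myr-Akt and 365 in c-Myc cells, against 2982 in H-RasV12 and 2382 in non-transformed cells, and its further probe set had a gap of -0.42. Runx1 had a gap of -2.21. Tbx18, a T-box factor, gave 2969.9 in myr-Akt and 1719 in c-Myc cells, against 644 in H-RasV12 and 1032 in non-transformed cells. The other higher members were Sox11 (gap 0.64), Foxf1 (0.28) and, barely divided, Gata6 (0.01) and Wt1 (0.01). A further probe set of Gata6 was not divided. Hox genes were lower in 6 of 13 and higher in 0.

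Krt18 and Krt8, keratins that pair in simple epithelium, were lower, although they are epithelial rather than mesenchymal. Krt18 gave 321 in myr-Akt and 337 in c-Myc cells, against 10745 in H-RasV12 and 3689.7 in non-transformed cells. Krt8 was at the floor in myr-Akt and c-Myc cells, against 3441 in H-RasV12 and 601 in non-transformed cells. The junction gene Cgn, which encodes cingulin, was higher instead, with 541 in myr-Akt and 777 in c-Myc cells, against the floor in H-RasV12 and 122 in non-transformed cells, and a further probe set was at the floor on all arrays. Epithelial junction genes and keratins as a list held 4 higher and 6 lower of 16. Cdh1, the defining epithelial cadherin, was at the floor in myr-Akt and c-Myc cells, against 260 in H-RasV12 and 115 in non-transformed cells.

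Sox9, a factor of bile duct and progenitor cells, was at the floor in myr-Akt and c-Myc cells, against 779 in H-RasV12 and 388 in non-transformed cells. The biliary and progenitor list held 2 higher and 4 lower of 13, and Epcam and Krt7 were not divided. Calcium-binding S100 proteins were lower in 5 of 7 and higher in 0, S100a13 with a gap of -2.49. WNT targets and secreted modulators were lower in 10 of 28 and higher in 5. Dkk3, another of the DKK family, was at the floor in the first pair, against 838 in H-RasV12 and 506 in non-transformed cells. Wnt5a had a gap of -1.80 and Znrf3, which removes WNT receptors, one of 0.99 with a further probe set at the floor on all arrays.

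Ribosome biogenesis genes were the list with the highest share of higher members, 68 of 73, with 0 lower and a median difference of 0.65, or 0.37 without the non-transformed array. A 2-fold gap was reached by 0 of them, and by only 0.758% of all measured genes. Ltv1, an assembly factor of the small subunit, gave 3551 in myr-Akt and 3662 in c-Myc cells, against 1847 in H-RasV12 and 1527 in non-transformed cells, a gap of 0.94. Rrs1, a factor of the large subunit, gave 7052 in myr-Akt and 6989 in c-Myc cells, against 3484 in H-RasV12 and 4219 in non-transformed cells. Wdr12, part of the PeBoW complex, gave 3127 in myr-Akt and 3115 in c-Myc cells, against 1917 in H-RasV12 and 1271 in non-transformed cells. Myr-Akt and c-Myc were almost equal in all 3.

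The E-box letters CACGTG stood in 12 of 65 promoter windows of ribosome biogenesis genes (18.5%), against 10.6% of all windows, 9.52% of those of the 2-fold higher genes and 4.14% of those of the 2-fold lower genes. An ETS site, CCGGAAG on either strand, stood in 43.1% of the ribosome biogenesis windows, 19.2% of all windows and 6.33% of those of the 2-fold lower genes. The 250 bases before the start are shown for the members with the largest gaps among those that hold an E-box there (GRCm38.p6, RefSeq), with the E-box in capitals.
Utp18, chr11:93885767-93886016, minus strand: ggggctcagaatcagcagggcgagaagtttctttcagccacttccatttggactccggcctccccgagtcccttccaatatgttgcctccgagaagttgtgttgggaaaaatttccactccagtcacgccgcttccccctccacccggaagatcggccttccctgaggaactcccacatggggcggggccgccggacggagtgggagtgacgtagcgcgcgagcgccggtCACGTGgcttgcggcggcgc
Rrn3, chr16:13780449-13780698, plus strand: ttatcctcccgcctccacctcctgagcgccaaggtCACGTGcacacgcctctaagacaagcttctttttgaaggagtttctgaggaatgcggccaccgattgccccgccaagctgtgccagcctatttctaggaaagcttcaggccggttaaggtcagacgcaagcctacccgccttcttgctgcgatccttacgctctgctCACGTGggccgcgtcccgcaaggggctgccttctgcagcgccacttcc

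Utp18, a part of the machinery that processes ribosomal RNA, has 1 E-box, which ends 14 bases before the start. Rrn3, the initiation factor of RNA polymerase I, has 2, the first of which ends 209 bases before it. Utp18 gave 3706 in myr-Akt and 3486 in c-Myc cells, against 2345 in H-RasV12 and 1411 in non-transformed cells, a gap of 0.57 that a further probe set did not show. Rrn3 gave 1771 in myr-Akt and 1642 in c-Myc cells, against 1352 in H-RasV12 and 1107 in non-transformed cells.

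Protein synthesis outside the nucleolus was less uniform. Cytosolic ribosomal proteins were higher in 11 and lower in 5 of 45, below the background in both directions, with a median difference of 0.04 whose sign turned without the myr-Akt or the non-transformed array (-0.01 each). Translation factors and tRNA synthetases were higher in 46 and lower in 6 of 82, and nucleoporins and transport receptors higher in 32 and lower in 5 of 51. Eif5b, which joins ribosomal subunits, had a gap of 0.45, and Xpo4, a nuclear exporter, one of 0.92, while their further probe sets gave 0.06 and 0.35. Eef1a1 and Eef2, the main elongation factors, were among the lower members, with gaps of -0.03 and -0.02.

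Nucleotide, serine and one-carbon synthesis genes were higher in 23 and lower in 2 of 33, with a median difference of 0.47, or 0.27 without the non-transformed array. Ahcy, which clears S-adenosylhomocysteine, gave 13009 in myr-Akt and 14842 in c-Myc cells, against 7642 in H-RasV12 and 6939 in non-transformed cells. Gart, a purine synthesis enzyme, gave 3634 in myr-Akt and 3916 in c-Myc cells, against 2468 in H-RasV12 and 1445 in non-transformed cells. Phgdh, the entry to serine synthesis, went the other way by a gap of -0.03.

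DNA replication genes were higher in 41 and lower in 1 of 49, with a median difference of 0.59, and mitosis genes higher in 33 and lower in 1 of 42, with one of 0.46. Without the non-transformed array these medians were 0.33 and 0.26. Cdt1, which loads the replicative helicase, gave 9582 in myr-Akt and 10757 in c-Myc cells, against 6048 in H-RasV12 and 4158 in non-transformed cells. E2f2, a factor of S-phase genes, gave 599 in myr-Akt and 376 in c-Myc cells, against 161 in H-RasV12 and the floor in non-transformed cells, a gap of 1.22. Ccna2, cyclin A2, gave 6753 in myr-Akt and 6724 in c-Myc cells, against 4343 in H-RasV12 and 3299 in non-transformed cells. Pttg1, securin, was the lower mitotic member, with a gap of -0.46.

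The regulators that act earlier in the cell cycle held 7 higher and 7 lower of 20. That is 35% each way, not far from the 29.5% and 28.7% of all measured genes. Cdkn1c, the inhibitor p57, gave 1016 in myr-Akt and 467 in c-Myc cells, against the floor in H-RasV12 and 103 in non-transformed cells, a gap of 2.18. Cdkn2b, the inhibitor p15, gave 1162 in myr-Akt and 1203 in c-Myc cells, against 4598 in H-RasV12 and 4539 in non-transformed cells. Cdkn2a had a gap of -0.64 and Ccnd2 one of -0.47, beside the -3.83 of Ccnd1, whereas Ccne2 had 0.51 and Cdk4 0.22.

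Genes known as targets of p53, which these cells lack, were higher in 5 and lower in 6 of 22. These shares, 22.7% and 27.3%, are under the 29.5% and 28.7% of all measured genes. Pmaip1, which encodes the apoptosis inducer NOXA, gave 1608 in myr-Akt and 1609 in c-Myc cells, against the floor in H-RasV12 and 456 in non-transformed cells, a gap of 1.82. Perp, a membrane protein of epithelia, gave 102 in myr-Akt and 112 in c-Myc cells, against 521 in H-RasV12 and 830.1 in non-transformed cells. Bcl2, the anti-apoptotic founder of its family, gave 145 in myr-Akt and 176 in c-Myc cells, against 1244 in H-RasV12 and 582 in non-transformed cells, a gap of -1.72 and -0.57 by a further probe set. Bbc3 and Bmf, which promote apoptosis, had gaps of 0.68 and 0.50, and a further probe set of Bmf was at the floor on all arrays.

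Mitochondrial genes were higher by small gaps. Mitochondrial ribosomal proteins were higher in 51 and lower in 2 of 76, with a median difference of 0.33, biogenesis and import genes higher in 22 and lower in 0 of 30, with 0.40, and oxidative phosphorylation subunits higher in 41 and lower in 9 of 74, with 0.13. For biogenesis and import the median was 0.60 without H-RasV12 and 0.27 without the non-transformed array. Tfam, which packages and transcribes mitochondrial DNA, gave 2229 in myr-Akt and 2462 in c-Myc cells, against 1534 in H-RasV12 and 1303 in non-transformed cells, a gap of 0.54, but a further probe set gave 0.04. Sdhd, a subunit of complex II, gave 6039 in myr-Akt and 6038 in c-Myc cells, against 4049 in H-RasV12 and 3588 in non-transformed cells, a gap of 0.58, with 0.18 by a further probe set. Cox6b2, a testis form of a complex IV subunit, was an exception, with 111 in c-Myc cells and the floor in myr-Akt cells, against 719.9 in H-RasV12 and 1411 in non-transformed cells.

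Sterol and fatty acid synthesis genes were higher in 21 and lower in 4 of 33, with a median difference of 0.32, or 0.51 without the c-Myc array. Dhcr7, which completes cholesterol, gave 1178 in myr-Akt and 932 in c-Myc cells, against 511 in H-RasV12 and 497 in non-transformed cells. Lss and Idi1, of the same pathway, had gaps of 0.63 and 0.54, and Ebp one of -0.49. Glycolysis and hypoxia genes were lower in 14 and higher in 6 of 32. Hk1, a hexokinase, gave 319 in myr-Akt and 140.1 in c-Myc cells, against 1883 in H-RasV12 and 1514 in non-transformed cells. Pfkfb4, a regulator of glycolysis, had a gap of -2.00, and Pdk1, which restrains pyruvate entry into mitochondria, one of -1.05.

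The lists of FOXO factors and targets and of AKT and PI3 kinase components stood near or under the background in both directions. Their counts thus do not set them apart from measured genes at large. FOXO factors and targets were higher in 7 and lower in 9 of 30, with Depp1 and Foxo3 (gap 0.74, with 0.25 by a further probe set) higher and Pdk4, a FOXO target that restrains glucose oxidation, at the floor in the first pair, against 842 in H-RasV12 and 1300.4 in non-transformed cells. Components of the AKT and PI3 kinase pathway were higher in 4 and lower in 6 of 21, all by less than 2-fold. The MYC, MAX and MXD network held 4 higher members of 12, with Max at a gap of 0.32, and Myc as its lower one.

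Among amino acid transporters, with 8 higher and 9 lower of 31, Slc7a5 gave 4499 in myr-Akt and 4043 in c-Myc cells, against 2312 in H-RasV12 and 2413 in non-transformed cells. It is the light chain of a transporter for large neutral amino acids, and Slc1a5, a glutamine transporter, had a gap of 0.86. Iron genes were higher in 6 and lower in 3 of 15. Slc40a1, the iron exporter ferroportin, gave 937 in myr-Akt and 559.6 in c-Myc cells, against 130.2 in H-RasV12 and 218 in non-transformed cells, a gap of 1.36, with 0.61 by a further probe set. Lysosome and autophagy genes were lower in 16 and higher in 2 of 36, Hexa, a subunit of hexosaminidase, with a gap of -1.43 and Ctsb, cathepsin B, with -0.58.

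Imprinted growth genes held some of the larger gaps in both directions, with 4 higher and 5 lower of 15. Igf2, the fetal insulin-like growth factor, gave 8384 in myr-Akt and 16943 in c-Myc cells, against 621 in H-RasV12 and 3975 in non-transformed cells, a gap of 1.08, though a further probe set was not divided. Plagl1, a zinc finger factor, gave 12442 in myr-Akt and 15323 in c-Myc cells, against 4954 in H-RasV12 and 7277 in non-transformed cells. Meg3, a maternally expressed non-coding RNA, gave 959 in myr-Akt and 1122 in c-Myc cells, against 6401 in H-RasV12 and 7749 in non-transformed cells. DNA methylation and polycomb enzymes were higher in 10 and lower in 1 of 25, Cbx2 with a gap of 0.83, its further probe set being at the floor on all arrays, and Bmi1 with 0.51.

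Further lists near or under the background were the unfolded protein response (3 higher and 5 lower of 28) and NRF2 targets and glutathione transferases (6 and 7 of 32). So were complement and acute phase genes (0 and 1 of 12) and the insulin-like growth factor axis (3 and 5 of 17). Retinoic acid genes held 2 higher and 5 lower of 16. Ephrins, semaphorins, slits and netrins held 8 and 14 of 37, and cadherins, protocadherins and claudins 3 and 9 of 26. Phosphodiesterases, guanylate cyclases and cGMP kinases, the list of Prkg2 and Gucy1a1, held 2 and 7 of 17. Oncofetal genes held 4 and 3 of 12, Plac1 and Hmga2 among them, and the BCL2 family 5 and 5 of 13.

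The arrays within a pair also differed from each other. The gap is taken between the nearest arrays of the pairs, so the spread within a pair bears on whether a gene divides and by how much. The shares below depend on that rule and are a description only. Over genes above the floor on all 4 arrays, myr-Akt and c-Myc were 2-fold apart in 2.96% and H-RasV12 and non-transformed cells in 5.89%. Among the 301 2-fold lower genes these shares were 10.3% and 14.6%, and among the 53 2-fold higher genes 1.89% and 11.3%. H-RasV12 was higher than non-transformed cells in 158 of the 301 lower genes and lower in 143, and myr-Akt was higher than c-Myc in 144 and lower in 157. Over all 516 2-fold lower genes, those at the floor in the first pair included, H-RasV12 was higher than non-transformed cells in 286 and lower in 230, by 2-fold in 66 and 37. Both arrays of each pair lay within 0.25 of each other in 56 of the 301 lower genes (18.6%) and 15 of the 53 higher genes (28.3%), against 30.5% of all such genes.

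The 2964 genes with any higher gap had a lean within the second pair. In 67.9% of them H-RasV12 was above non-transformed cells, against 53.3% of all genes above the floor on all arrays, so that H-RasV12 lay between the first pair and non-transformed cells. In the 2440 genes with any lower gap the share was 43.4%. Ribosome biogenesis shows the lean, with median log2 signals, taken from each gene's own mean, of 0.34 in myr-Akt and 0.33 in c-Myc cells, against -0.06 in H-RasV12 and -0.61 in non-transformed cells. DNA replication gave 0.29 in myr-Akt and 0.26 in c-Myc cells, against -0.03 in H-RasV12 and -0.54 in non-transformed cells. Interferon response gave -0.88 in myr-Akt and -0.73 in c-Myc cells, against 0.33 in H-RasV12 and 1.33 in non-transformed cells. ERK output had its 2 other arrays level instead, at -0.56 in myr-Akt and -0.23 in c-Myc cells, against 0.44 in H-RasV12 and 0.37 in non-transformed cells.

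**Figure D4:**
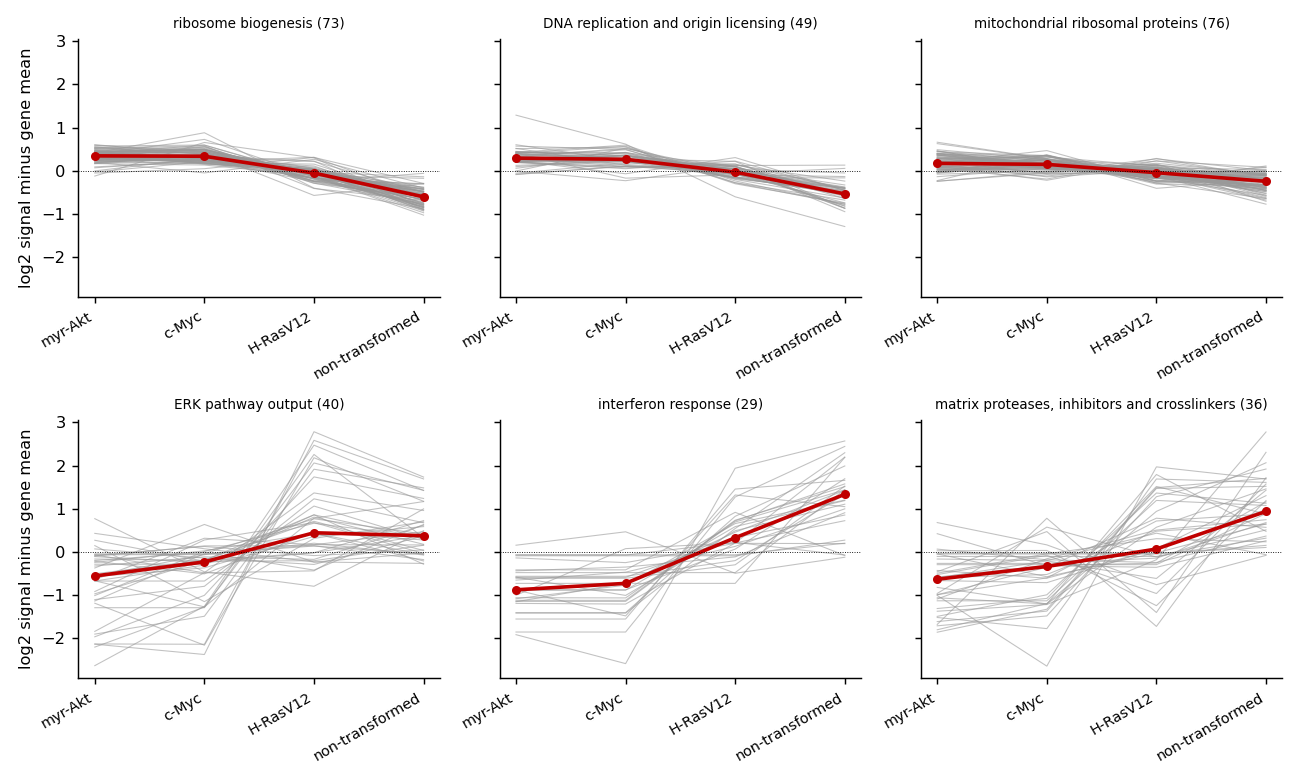
Log2 signal of each measured member (grey lines) minus the member's own mean over the 4 arrays, with the median in red, for 6 lists (number of members in brackets). In the upper lists H-RasV12 lies between the myr-Akt and c-Myc pair and non-transformed cells, in ERK output H-RasV12 and non-transformed cells are level at 0.44 and 0.37, and in the interferon list non-transformed cells are highest at 1.33.

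Single genes show how wide a pair could be while still dividing. Irgm1, an immunity GTPase, gave 129.5 in myr-Akt and 128 in c-Myc cells, against 342 in H-RasV12 and 1361 in non-transformed cells. Sorbs2, an adaptor of the actin cytoskeleton, gave 381 in myr-Akt and 216 in c-Myc cells, against 5485 in H-RasV12 and 1119 in non-transformed cells, a gap of -1.56, with -0.71 by a further probe set. These are opposite orders within the second pair. Cthrc1, a secreted protein of injured vessels, gave 843 in myr-Akt and 147 in c-Myc cells, against 5029.5 in H-RasV12 and 6392 in non-transformed cells, and Mdk, the growth factor midkine, gave 502 in myr-Akt and 108 in c-Myc cells, against 3451 in H-RasV12 and 2069 in non-transformed cells. Nrep, a neuronal protein, had the widest difference within the second pair among the 2-fold higher genes above the floor on all arrays, with 3206 in myr-Akt and 3959 in c-Myc cells, against 166 in H-RasV12 and 1083 in non-transformed cells.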

How the data were processed

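RNA was measured on 4 Affymetrix mouse arrays, 1 for each label. The authors deposited linear intensities, 1 for each probe set, and the submitters' processing notes name MAS5 as the tool. Its version, detection calls and scan batches are not stated in the sources used here. Each array was scaled to a common 2% trimmed mean, floored at 20% of it and taken to log2, with pandas 2.3.3 and NumPy 2.4.6 under Python 3.11.15.

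Of 45101 probe sets, 64 controls were left out, 34945 had 1 symbol, 932 several and 9160 none. Symbols of 34741 matched RefSeq, and 0 were updated. The brightest probe set (mean over arrays) that names the gene alone stood for it. Promoter windows of 300 bases came from RefSeq (GRCm38.p6). Where a gene had several windows (1808 genes), the one listed earliest was used.

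Without replicates there is no test and no p-value, and the spread between cultures is unknown. The pairing, the members and the 58 gene lists were chosen with earlier results of these data known. The symbol pattern of the translation factor list was tightened, and 1 list renamed, after the values had been seen. Named genes were those with the largest gaps, bounds and within-pair differences in each direction. To these came up to 6 members of each list in each direction, members divided against their list, the marker genes of other cell types and the transduced genes. Predicted genes were left out. The counting steps were tested on simulated data, and alternatives for floor, scaling, probe set choice and left-out arrays were computed. Undivided list members are named only to complete a list, and Utp18 and Rrn3 for their promoters.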

Additional observations from a re-analysis of the deposited data

How the results depend on the processing

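No paired analysis was possible because each label has 1 array and the labels carry no replicate numbers. Each array was left out in turn, which leaves its pair with 1 array and so asks less of a gene. The 2-fold counts then ran from 178 to 320 higher and from 662 to 978 lower, against 81 and 516 with all arrays. All 81 and all 516 were still counted under each, as they must be, since leaving out an array cannot narrow such a gap. With any gap the counts ran from 4044 to 4264 higher and from 3740 to 4660 lower, against 3145 and 3069. Averaging the probe sets of a gene left 52 higher at 2-fold, 48 of them among the 81, and 354 lower, 345 of them among the 516. Restricting to genes above the floor on all arrays left 53 and 301, since fewer genes are counted. Floors at 10% and 40% gave 107 and 64 higher and 695 and 367 lower, quantile normalization 100 and 469, and a pseudocount of 100 without a floor 54 and 432. More lower than higher genes at 2-fold were found under each of these.

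Of the list medians, 32 were 0.3 or more in size, and 3 of their 352 recomputed values turned sign. The median became 0.62 for hepatocyte and hepatoblast genes and 0.98 for endothelial markers in genes above the floor on all arrays, where 4 and 1 members are left. For mesothelial markers it was -0.42 without H-RasV12 and 1.30 without non-transformed cells, against 0.63. Among named genes, the gap turned for Srf (-0.00926) and Rps10 (0.0180) without probe sets that can bind several transcripts, and for Rps10 (0.193) and Eif5a (0.0277) with probe sets averaged. The gaps of Rps10 and Eif5a were small to begin with, at -0.06 and -0.01. That of Srf was 0.38, above the median higher gap of 0.23. The cause was not tested. Signals near the floor limit what can be read from the 1714 measured genes that lay at it on some array.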

Other observations

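Some of the 2-fold lower genes lie next to each other on the RefSeq gene map. Of 10641 pairs of neighbouring measured genes, 40 had both members lower by 2-fold and 1 had both higher (Fbn2 and Isoc1, with gaps of 1.24 and 1.49). Among all measured genes 4.83% were lower and 0.758% higher by 2-fold, so some such pairs arise whatever the gene order. Whether 40 is more than those shares give was not tested. The non-coding RNAs Meg3, Rian and Mirg, which follow each other in an imprinted cluster, had gaps of -2.51, -2.41 and -1.67. The metallothioneins Mt2 and Mt1, which bind zinc and copper, had gaps of -2.66 and -2.07, though a further probe set of Mt1 was not divided. Other runs were S100a1, S100a13 and S100a16 (-1.37, -2.49 and -1.86), Scara3, Clu and Ephx2 (-2.11, -2.68 and -3.35), and Col7a1, Ucn2, Pfkfb4 and Shisa5 (-2.35, -1.48, -2.00 and -1.27). Osmr and Lifr, receptor subunits for cytokines of the interleukin 6 family, were neighbours too, with gaps of -1.85 and -1.33 (-0.70 and -0.44 by further probe sets). These genes were named for their position after their values were seen.

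The 2-fold lower genes had a median length on the gene map of 29.7 kb, and 20.7% were longer than 100 kb. For the 2-fold higher genes these were 27.2 kb and 16.0%, and for all measured genes 24.4 kb and 13.3%. Their promoter windows held a median of 16 CpG dinucleotides for the lower and 20 for the higher genes, against 22 for all measured genes. Windows with fewer than 5 CpG made up 13.6% of the lower, 11.1% of the higher and 5.23% of all.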
